A study of Mus musculus with 30 samples.

Results

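Aortas of mutant mice given bicalutamide or spironolactone together with a vasodilator were compared with aortas of untreated normal mice, to describe how close the treated mutants came to normal levels and where they lay beyond them. The measurement was bulk RNA-seq of the descending thoracic aorta of male mice. The labels say that the outer adventitia was stripped off, and the study's methods say that the surrounding fat was cleaned away. VEDS mice, a model of vascular Ehlers-Danlos syndrome, carried 1 mutant copy of *Col3a1*, in which a missense mutation replaces a glycine of type III collagen. All treated VEDS mice received hydralazine at 32 mg/kg/day from birth and, from day 21, either bicalutamide at 50 mg/kg/day (HB, 3 libraries) or spironolactone at 100 mg/kg/day (HS, 3 libraries), and their aortas were taken on day 60. Untreated controls were *Col3a1*+/+ wild-type mice given no drug, with 6 libraries. The study collected untreated mice, and mice given hydralazine alone, on day 30 and on day 60.

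The comparison set was 9 of the 30 libraries in the series, namely the 6 treated VEDS libraries and the 3 untreated controls in which *Col3a1* lay below 10000 CPM (a gene's reads scaled to a fixed library total). That level was a measured value, so these 3 controls were selected on the abundance of a matrix transcript and are called the matrix-low controls here. Their *Col3a1* level was 5178, 4594 and 4303 CPM in control replicates 1, 2 and 3. The other 3 controls stood at 14724, 15420 and 15732 CPM, so no control lay near the level chosen. HB libraries stood at 6728, 6133 and 5677 CPM and HS libraries at 7285, 7413 and 5173 CPM. The age of each control library is not labelled, and the treated mice differed from the controls in genotype, in drug and, for any control taken on day 30, in age, and these cannot be told apart. For this reason the 6 treated libraries are set beside the 3 matrix-low controls as a description without a test, and every test below used all 6 controls that the labels give.

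Type III collagen is made by smooth muscle cells and fibroblasts of the vessel wall and assembles with type I collagen into fibrils, while elastin is laid on fibrillin microfibrils to form the elastic lamellae. Both sets of genes are known for high expression in the growing aorta and a decline toward adulthood. Bicalutamide is a hormone antagonist, and spironolactone blocks the mineralocorticoid receptor. Hydralazine lowers blood pressure by relaxing arterioles.

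Library totals of the 9 libraries ran from 6005995 to 8064586 expected counts, with 15849 to 16290 genes detected. Levels below are CPM scaled with normalisation factors over all 30 libraries. The smooth muscle myosin gene *Myh11*, a check of the labelled tissue, stood between 7144 and 9934 CPM in treated aortas and between 5212 and 9675 CPM in controls. Defining markers of the endothelium (*Pecam1*) and of fibroblasts (*Pdgfra*) were present at 349 to 665 CPM and 153 to 182 CPM in treated aortas. Of 12 lymphocyte markers, 0 passed the filter on low counts. HB replicate 2 stood apart with 403 CPM of the cardiac myosin *Myh6*, against 0.266 to 41.05 CPM in the other treated libraries. In HS replicate 3 the heat shock gene *Hspa1b* reached 709 CPM, against 37.7 to 225 CPM in the other treated libraries, and the lipid enzyme gene *Fasn* was at 121 CPM.

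Against all 6 untreated controls, 91 of 13350 tested genes were called in treated VEDS aortas (mean of HB and HS, edgeR quasi-likelihood test at an adjusted p of 0.05 or less), or 0.682% of genes. Of these, 24 were higher (0.180%) and 67 were lower (0.502%). This balance depended on the fit, since 1 fit of all 30 libraries called 52 higher and 28 lower, while DESeq2 called 178 higher and 632 lower. *Cyp2b10*, a drug-induced cytochrome P450, had the smallest adjusted p at 0.000156, and the next smallest was 0.0316 for *Sult2a7*. All other calls lay close to the threshold and rested on the exact set of libraries. *Cyp2b10* was called in all 12 fits that left out 1 library, while the other 90 genes were called in 3 to 5 of them, although all 91 kept their direction in each. The count was 1 without control replicate 2, 4 or 6, HS replicate 2, or HB replicate 2 or 3. It was 2 without HB replicate 1 or HS replicate 3, 35 without control replicate 5, 474 without control replicate 3, 607 without control replicate 1 and 642 without HS replicate 1. Without HB replicate 2 and HS replicate 3, the 2 libraries that stood apart, the count was 2, namely *Cyp2b10* and *Sult2a7*. Every other call against the 6 controls was therefore lost without them, and the counts of called members in each gene list became 0 except for drug-metabolising genes, where 1 remained.

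The description against the 3 matrix-low controls covered 13396 genes with a mean of at least 1 CPM. In 501 genes (3.74%) all 6 treated values lay above all 3 matrix-low controls, and in 272 genes (2.03%) all lay below. Against the other 3 controls the same counts were 812 (6.00%) above and 1338 (9.88%) below of 13541 genes. Against all 6 controls, 59 genes (0.437%) lay above and 80 genes (0.593%) lay below of 13491. These shares are the background for every count of non-overlapping genes below, and they depend on the number of libraries compared.

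The matrix genes were examined first, since the controls were chosen on one of them. *Col1a1*, which encodes the major chain of type I collagen, stood at 2117, 1580 and 1416 CPM in HB and 2210, 1494 and 1543 CPM in HS. It stood at 937, 895 and 804 CPM in the matrix-low controls and at 3478, 3065 and 4707 CPM in the other 3. All 6 treated values thus lay between the 2 sets of controls, and no value overlapped with either set. *Eln*, which encodes elastin, stood at 4569, 4340 and 4235 CPM in HB and 5206, 5606 and 4318 CPM in HS. Its levels were 3497, 2210 and 2454 CPM in the matrix-low controls and 11832, 10015 and 11277 CPM in the other controls. Again the treated libraries lay above the first set and below the second. *Col1a2*, the partner chain of type I collagen, showed the same order, with 3405 to 4289 CPM in treated aortas, 2194 to 2459 CPM in the matrix-low controls and 5536 to 7043 CPM in the other controls.

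**Figure D1:**
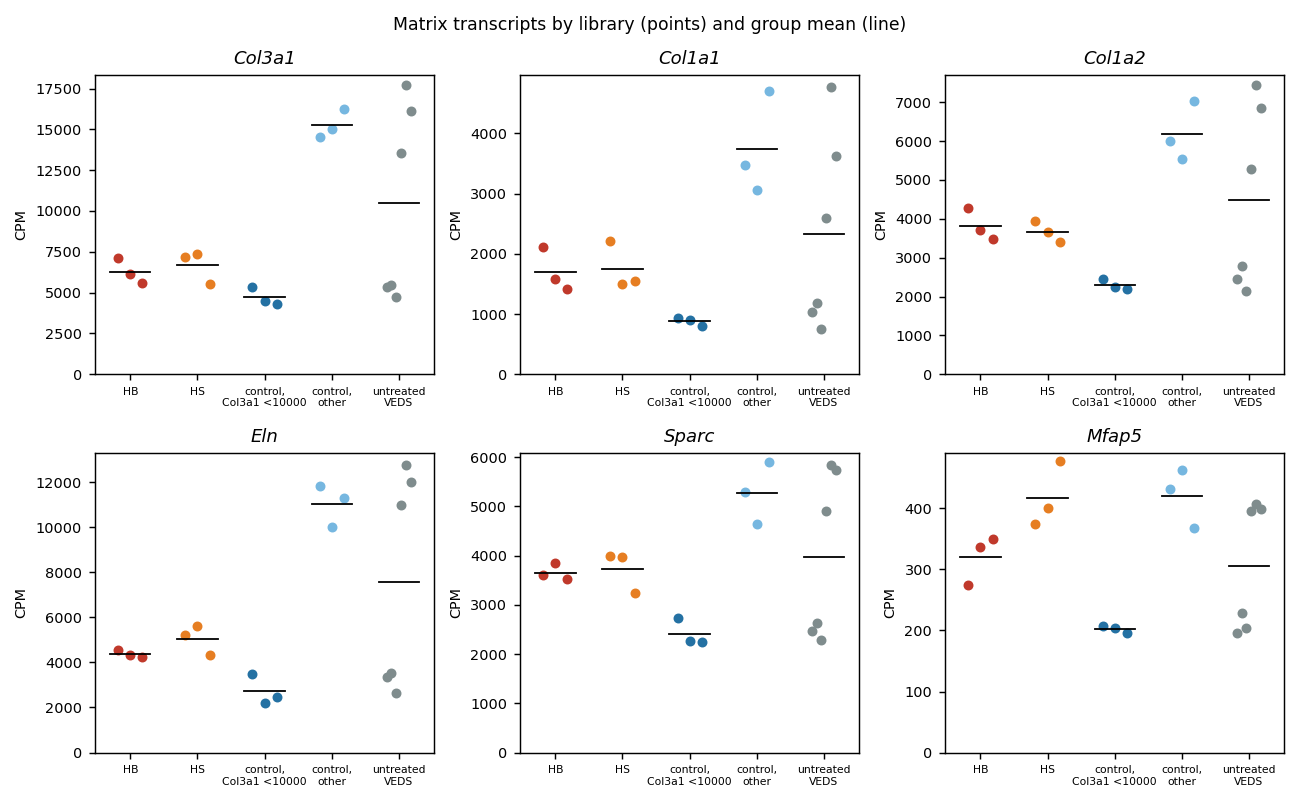
Levels of 6 matrix transcripts in CPM (vertical axis, from 0) by library, in HB, HS, the 3 matrix-low controls, the other 3 controls and untreated VEDS, with points for libraries and a line for the group mean. In *Col3a1*, *Col1a1*, *Col1a2*, *Eln* and *Sparc* every treated library lies above the matrix-low controls and below the other controls, while *Mfap5* overlaps with the other controls. For *Col3a1* this depends on the scaling. On file totals HS replicate 3, at 5173 CPM, lies just below control replicate 1, at 5178 CPM.

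Such an intermediate position was not common across the transcriptome. In 1881 genes all 3 matrix-low controls lay below the other 3, and in 40 of these (2.13%) all 6 treated values fell between the 2 sets. In the opposite order, 1939 genes had the matrix-low controls above the others and 9 of these (0.464%) had all treated values in between. Among the 8 tested fibrillar collagens, 5 lay between the control sets, namely *Col1a1*, *Col1a2*, *Col3a1*, *Col5a1* and *Col5a2*. *Col3a1* was itself used to split the controls, so its gap between the sets was fixed by the choice. On file totals its level in HS replicate 3, 5173 CPM, fell within the matrix-low controls, where replicate 1 had 5178 CPM. Among 22 elastic fibre genes, 12 had lower levels in the matrix-low controls and 4 of these, *Eln*, *Fbn1*, *Mfap4* and *Loxl2*, had the treated libraries in between. *Fbn1* encodes fibrillin-1, *Mfap4* a microfibril protein and *Loxl2* an enzyme that cross-links collagen and elastin. Since *Col3a1* set the choice of controls, genes that vary with it across controls were bound to separate the 2 sets, and the position of the treated libraries was read without a test.

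Other matrix genes also stood above the matrix-low controls. *Mfap5*, which encodes a microfibril glycoprotein, stood at 275, 337 and 349 CPM in HB and 375, 400 and 477 CPM in HS, against 207, 205 and 195 CPM in the matrix-low controls. Its 367 to 464 CPM in the other controls overlapped with HS and not with HB. *Sparc*, a collagen-binding matricellular protein, stood at 3238 to 3994 CPM in treated aortas, 2237 to 2732 CPM in the matrix-low controls and 4647 to 5903 CPM in the others. *Fstl1*, a secreted matrix glycoprotein, stood at 2345 to 2852 CPM, 1763 to 1926 CPM and 3021 to 3472 CPM in the same order. *Col1a2*, *Eln*, *Fras1*, *Itga4*, *Mfap5* and *Fstl1* were chosen by the study on these samples as raised by both combinations. All 6 lay above the matrix-low controls, which is not independent evidence of their direction.

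By list, most matrix genes were higher on average in the treated libraries than in the matrix-low controls, and many overlapped with them. The median log2 ratio of group means over these controls was 0.46 for 8 fibrillar collagens, 0.45 for 19 fibril-associated collagens and organisers and 0.41 for 22 elastic fibre genes, with a median over all tested genes of 0.00. Values did not overlap and lay above in 5, 10 and 9 of them, and below in 0. In collagen folding and processing 5 of 19 genes lay above, and in basement membrane 5 of 19, with 0 below in either. *Col3a1*, on which the controls were chosen, is 1 of the 8 fibrillar collagens, and without it the median over the matrix-low controls was 0.458 and 4 of 7 lay above. Over the other 3 controls the medians were -0.89, -0.11 and 0.00 against 0.03 for all genes, and all 8 fibrillar collagens lay below these controls. In the tested comparison with all 6 controls the fibrillar collagens had a median log2 fold change of -0.37 against 0.00 for all genes, and 0 were called higher or lower. The log2 fold change of *Col3a1* was -0.64 ± 0.37 (edgeR, adjusted p = 0.423) and that of *Eln* was -0.57 ± 0.45 (edgeR, adjusted p = 0.571). Matrix proteases and inhibitors had 4 of 20 members above the matrix-low controls, among them the gelatinase gene *Mmp2* at 168.5 to 214 CPM against 105 to 119 CPM. In bulk RNA a change in the number of cells of a type and a change in RNA per cell cannot be told apart.

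A few matrix and matricellular genes lay above every control of either set. *Fbln2*, which encodes the elastic fibre and basement membrane protein fibulin-2, stood at 282, 341 and 285 CPM in HB and 356, 349 and 339 CPM in HS. It stood at 176, 174 and 184 CPM in the matrix-low controls and at 196, 282 and 239 CPM in the others, so the highest control came close to the lowest treated library. It was called higher, with a log2 fold change of 0.62 ± 0.12 (edgeR, adjusted p = 0.0475), and against untreated VEDS the change was 0.43 ± 0.08 (edgeR, adjusted p = 0.0178). It was the single elastic fibre gene of 22 that was called. *Ccn5*, a secreted matricellular protein known to restrain smooth muscle growth, stood at 216.5 to 259 CPM in treated and 128 to 194 CPM in control aortas (log2 fold change 0.56 ± 0.10, edgeR, adjusted p = 0.0382). *Islr*, a secreted protein of stromal cells, stood at 195, 168 and 198 CPM in HB, 131, 177 and 140 CPM in HS and 116 to 125 CPM in controls (0.44 ± 0.08, edgeR, adjusted p = 0.0382). Untreated VEDS, at 125.5 to 164.6 CPM, overlapped with the treated values of *Islr* (0.21 ± 0.10, edgeR, adjusted p = 0.276).

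*Thbs1*, which encodes the matricellular protein thrombospondin-1, lay above all controls but did not pass the test. It stood at 133, 228 and 156 CPM in HB and 162, 203 and 448 CPM in HS, against 55.5 to 111 CPM in the 6 controls, with a log2 fold change of 1.32 ± 0.28 (edgeR, adjusted p = 0.057). Its highest value came from HS replicate 3. Against untreated VEDS the log2 fold change was 1.36 ± 0.28 (edgeR, adjusted p = 0.0362). *Igfbp6*, which binds insulin-like growth factors, was called higher than in controls and had already a high level in part of the untreated VEDS libraries. It stood at 55.5, 64.2 and 74.1 CPM in HB and 81.3, 97.59 and 112 CPM in HS, against 27.8 to 53.9 CPM in controls (0.84 ± 0.15, edgeR, adjusted p = 0.0442). Untreated VEDS stood at 86.85, 89.5 and 91.1 CPM in replicates 1, 2 and 3, where *Col3a1* was below 10000 CPM. Replicates 4, 5 and 6 stood at 44.9, 44.4 and 52.2 CPM. All HB values lay between these 2 sets. Against all untreated VEDS libraries the log2 fold change of *Igfbp6* was 0.21 ± 0.22 (edgeR, adjusted p = 0.652).

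Proteoglycan genes stood slightly above both sets of controls. Of 12 tested, 3 lay above the matrix-low controls, namely *Fmod*, *Podn* and *Vcan*, and 10 of 12 had a positive log2 fold change against all controls with a median of 0.185, while 0 were called. *Bgn*, the small proteoglycan biglycan, stood at 1857, 1846 and 1717 CPM in HB and 1508, 1404 and 1246 CPM in HS, against 1216 to 1310 CPM in the matrix-low and 1063 to 1539 CPM in the other controls. The HB values lay above every control and the HS values overlapped with them, with a combined log2 fold change of 0.31 ± 0.09 (edgeR, adjusted p = 0.101).

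The clearest difference from controls was in a gene of drug metabolism. *Cyp2b10*, a target of the nuclear receptor CAR that is known for induction by many drugs in liver, stood at 11.9, 15.8 and 10.1 CPM in HB and 7.82, 4.84 and 10.8 CPM in HS. It stood at 0.489, 1.40 and 0.421 CPM in the matrix-low controls and 0.760, 0.855 and 0.912 CPM in the others. Every treated library was above every control, and untreated VEDS ran from 0.575 to 2.55 CPM. The log2 fold change was 3.59 ± 0.29 for the combined groups, 3.92 ± 0.32 for HB (edgeR, adjusted p = 0.000155) and 3.25 ± 0.32 for HS (edgeR, adjusted p = 0.00206). The reads behind these levels numbered 30 to 95 in a treated library and 3 to 9 in a control. Against controls given hydralazine, the log2 fold change was 2.25 ± 0.46 (edgeR, adjusted p = 0.161).

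2 further enzymes of the same kind had few reads. *Sult2a7*, a sulfotransferase gene, had 24, 21 and 25 reads in HB and 39, 16 and 4 in HS, against 2 reads in the 6 controls together. The ratio of reads per total was 62.4 with a 95% counting interval from 16.9 to 521, which covers counting error only, and the gene was called (edgeR, adjusted p = 0.0316). *Gsta1*, a glutathione transferase with close paralogs between which reads may be split, had 2 to 24 reads in a treated library and 0 to 3 in a control, and was called (edgeR, adjusted p = 0.0475). Its ratio over all controls was 9.55 with a counting interval from 4.62 to 22.9. Of 20 tested drug-metabolising genes, 2 were called higher, *Cyp2b10* and *Gsta1*, and 0 lower. *Por*, which passes electrons to cytochromes P450, lay above the matrix-low controls, with 46.3 to 89.8 CPM against 41.2 to 45.6 CPM, and overlapped with the others.

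**Figure D2:**
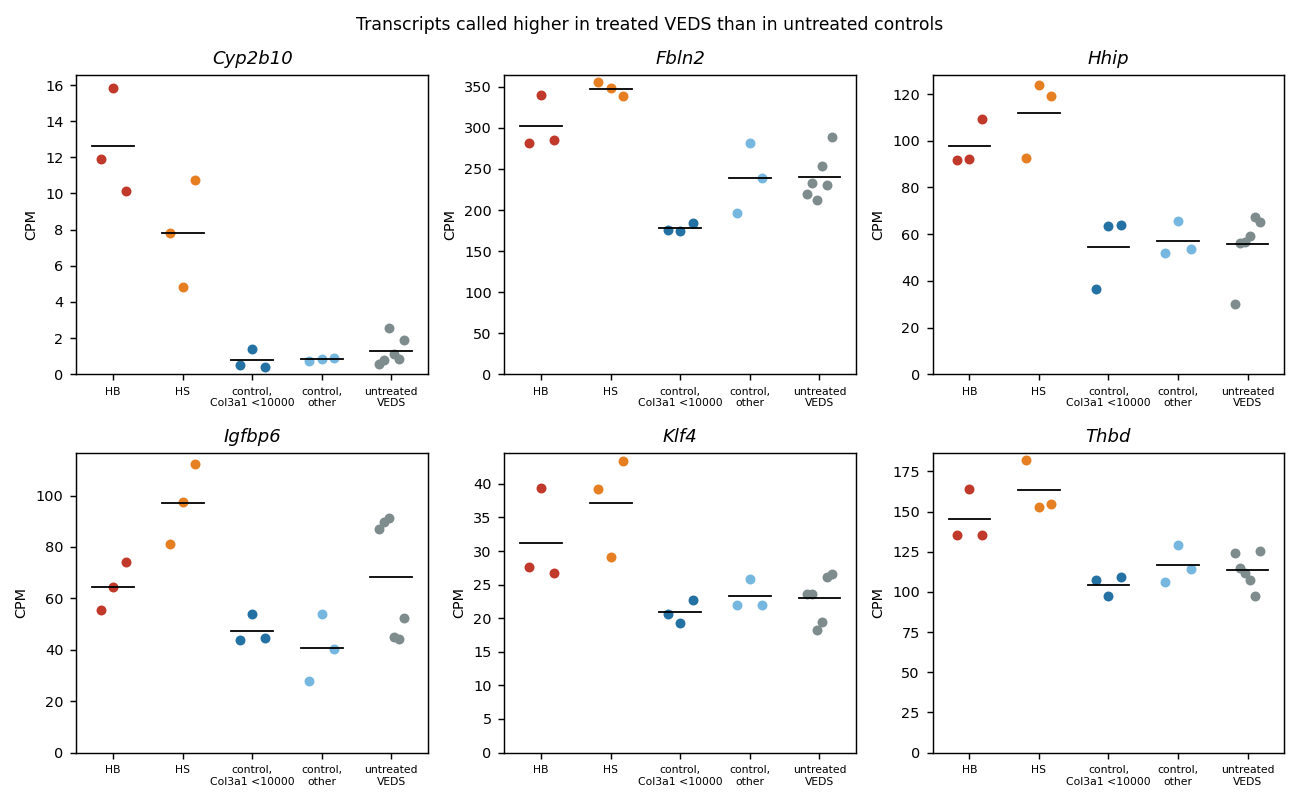
Levels of 6 transcripts called higher in treated VEDS aortas than in the 6 untreated controls, in CPM from 0, by library, with a line for the group mean. Each treated library lies above each control for all 6, and for *Igfbp6* the treated values overlap with untreated VEDS.

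A few genes known to respond to blood flow or to acute stimuli were called higher in treated aortas. *Klf4*, a transcription factor of endothelium and of activated smooth muscle, stood at 27.6, 39.4 and 26.8 CPM in HB and 39.2, 29.0 and 43.4 CPM in HS, against 19.2 to 22.8 CPM in the matrix-low and 21.9 to 25.8 CPM in the other controls. No treated value overlapped with a control (0.61 ± 0.12, edgeR, adjusted p = 0.0482). *Klf2*, the flow-induced factor of endothelium, stood at 13.6, 19.5 and 18.6 CPM in HB and 26.0, 21.3 and 22.2 CPM in HS, against 11.4 to 15.2 CPM in controls (0.58 ± 0.11, edgeR, adjusted p = 0.0475). Its lowest HB library lay within the controls and its HS libraries lay above them. *Thbd*, the endothelial anticoagulant receptor thrombomodulin, stood at 135.5 to 182 CPM in treated and 97.2 to 129 CPM in control aortas (0.46 ± 0.08, edgeR, adjusted p = 0.0442). *Ier3*, an immediate early gene, stood at 15.7 to 38.4 CPM against 8.21 to 13.85 CPM (1.11 ± 0.22, edgeR, adjusted p = 0.0487).

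Of 20 tested immediate early genes, 3 were called higher (*Klf4*, *Klf2* and *Ier3*) and 0 lower, and the median log2 fold change was 0.555 against 0.00 over all genes. Against the matrix-low controls the median log2 ratio was 0.37, and 2 of 20 lay above. Endothelial markers as a list did not stand higher, with 0 of 14 called and a median of 0.06. Heat shock chaperones had a median of 0.30 with 0 of 14 called. Without HB replicate 2 and HS replicate 3, 0 immediate early genes were called. Handling of the tissue, which can raise such genes, was not tested.

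Promoter sequence is shown for *Klf2* and *Ier3*, since both held a match to a loose form of the MEF2 motif (CTA, any 4 bases, then TAG). It was searched on both strands in the 250 bases before the start of transcription (RefSeq, GRCm38.p6). The usual motif has A or T at the 4 middle bases. The *Klf2* match keeps to that, while the *Ier3* match holds a G there. The 150 bases before the start are printed 5′ to 3′ on the coding strand, with the match in capitals. *Klf2* lies at chr8:72318912-72319061 on the plus strand, and its match begins 118 bases before the start. *Ier3* lies at chr17:35821563-35821712 on the plus strand, and its match begins 59 bases before the start. These coordinates are of another build than the mm39 assembly behind the counts.
Klf2: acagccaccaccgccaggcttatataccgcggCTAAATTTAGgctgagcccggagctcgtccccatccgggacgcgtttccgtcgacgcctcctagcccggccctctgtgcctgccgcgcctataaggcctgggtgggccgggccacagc
Ier3: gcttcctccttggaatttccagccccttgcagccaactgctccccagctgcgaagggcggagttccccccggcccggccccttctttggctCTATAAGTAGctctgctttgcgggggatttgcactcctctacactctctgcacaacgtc

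The motif was chosen after the called genes were seen. Of the 24 genes called higher, 18 had a promoter in the reference table and 2 of these (11.1%) held the match. Of the 67 called lower, 49 had a promoter and 2 (4.08%) held it. Over all tested genes with a promoter the share was 3.37%, and over all 32851 single promoters of the same length it was 3.2%. A match describes the letters of the window and not a bound site.

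Other genes called higher had varied known roles. *Hhip*, which encodes an inhibitor of hedgehog signalling, stood at 91.9, 92.4 and 109 CPM in HB and 92.4, 124 and 119 CPM in HS, against 36.3, 63.6 and 63.9 CPM in the matrix-low controls and 51.8, 65.5 and 53.6 CPM in the others. All treated values lay above all controls (0.89 ± 0.14, edgeR, adjusted p = 0.032), and it was also higher than in hydralazine controls (0.89 ± 0.11, edgeR, adjusted p = 0.0114). *Slc24a4*, a sodium-calcium exchanger, stood at 5.97 to 17.0 CPM in treated and 1.63 to 4.86 CPM in control aortas (1.57 ± 0.32, edgeR, adjusted p = 0.0487). *Tiam1*, an activator of the small GTPase Rac, stood at 19.4 to 28.9 CPM against 13.5 to 18.1 CPM (0.62 ± 0.11, edgeR, adjusted p = 0.0442). *Alpl*, the tissue-nonspecific alkaline phosphatase, stood at 10.4 to 15.5 CPM against 5.13 to 8.69 CPM (0.74 ± 0.14, edgeR, adjusted p = 0.0475), while untreated VEDS reached 13.7 CPM. *Aldh1a3*, a retinoic acid synthesising enzyme, was called at 0.83 ± 0.17 (edgeR, adjusted p = 0.0482) and overlapped with the other controls. *Trim66* stood at 2.38 to 4.51 CPM against 0.281 to 1.54 CPM (2.12 ± 0.33, edgeR, adjusted p = 0.032), with 0.330 to 3.31 CPM in untreated VEDS. *Hspa1l* was called at 0.88 ± 0.17 (edgeR, adjusted p = 0.0475), although this gene overlaps the near-identical *Hspa1a* and *Hspa1b* region, so its reads are uncertain.

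HB and HS did not stand alike in every gene. For HB alone, 1 gene was called against the 6 controls (0.00749%), *Cyp2b10*. For HS alone, 2 genes were called (0.0150%), *Cyp2b10* and *Folh1*, which encodes a glutamate carboxypeptidase known as prostate-specific membrane antigen. *Folh1* stood at 12.3, 14.5 and 16.0 CPM in HS and at 4.59, 8.49 and 10.8 CPM in HB, against 4.26 to 5.90 CPM in controls. Its log2 fold change was 1.51 ± 0.21 for HS (edgeR, adjusted p = 0.0441) and 0.67 ± 0.22 for HB (edgeR, adjusted p = 0.1755). *Gdf6*, a bone morphogenetic protein ligand, stood at 8.12, 7.26 and 8.38 CPM in HS and 3.57, 3.00 and 3.88 CPM in HB, against 1.55 to 4.10 CPM in controls. *Flnc*, which encodes the actin cross-linker filamin C, showed the other order, with 365, 336 and 286 CPM in HB, 168, 194 and 228 CPM in HS and 120 to 207 CPM in controls. In *Folh1*, *Gdf6* and *Flnc* the HB and HS libraries did not overlap with each other. These differences between HB and HS were not tested, the genes being picked for their values and the drugs having been given at different doses.

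Contractile, adhesion and signalling genes stood close to the matrix-low controls. Of 20 smooth muscle contractile genes, 0 lay above or below these controls, and the median log2 ratio over them was -0.06. Over the other 3 controls the median was 0.28 and all 20 were higher on average, with 1 of them above without overlap. *Acta2*, smooth muscle actin, stood at 7466.5 to 11686 CPM in treated aortas, 7947 to 11732 CPM in the matrix-low controls and 6733 to 9195 CPM in the others. Integrins and collagen receptors had all 16 members with a positive log2 fold change against the 6 controls, a median of 0.13 and 0 calls. *Itgb1*, the integrin beta chain shared by collagen receptors, stood at 1473 to 1686.5 CPM in treated aortas, 1530 to 1696 CPM in the matrix-low controls and 1137 to 1282 CPM in the others. *Itga11*, a receptor chain for fibrillar collagen, lay above the matrix-low controls with 12.3 to 14.4 CPM against 8.01 to 10.3 CPM. TGF-beta signalling genes were positive in 20 of 22 with a median of 0.20 and 0 calls, and *Acvrl1*, a receptor of the family, stood at 46.8 to 65.4 CPM against 35.9 to 45.0 CPM in the matrix-low controls. In the contractile and integrin lists the treated libraries therefore overlapped with the matrix-low controls in most members.

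**Figure D3:**
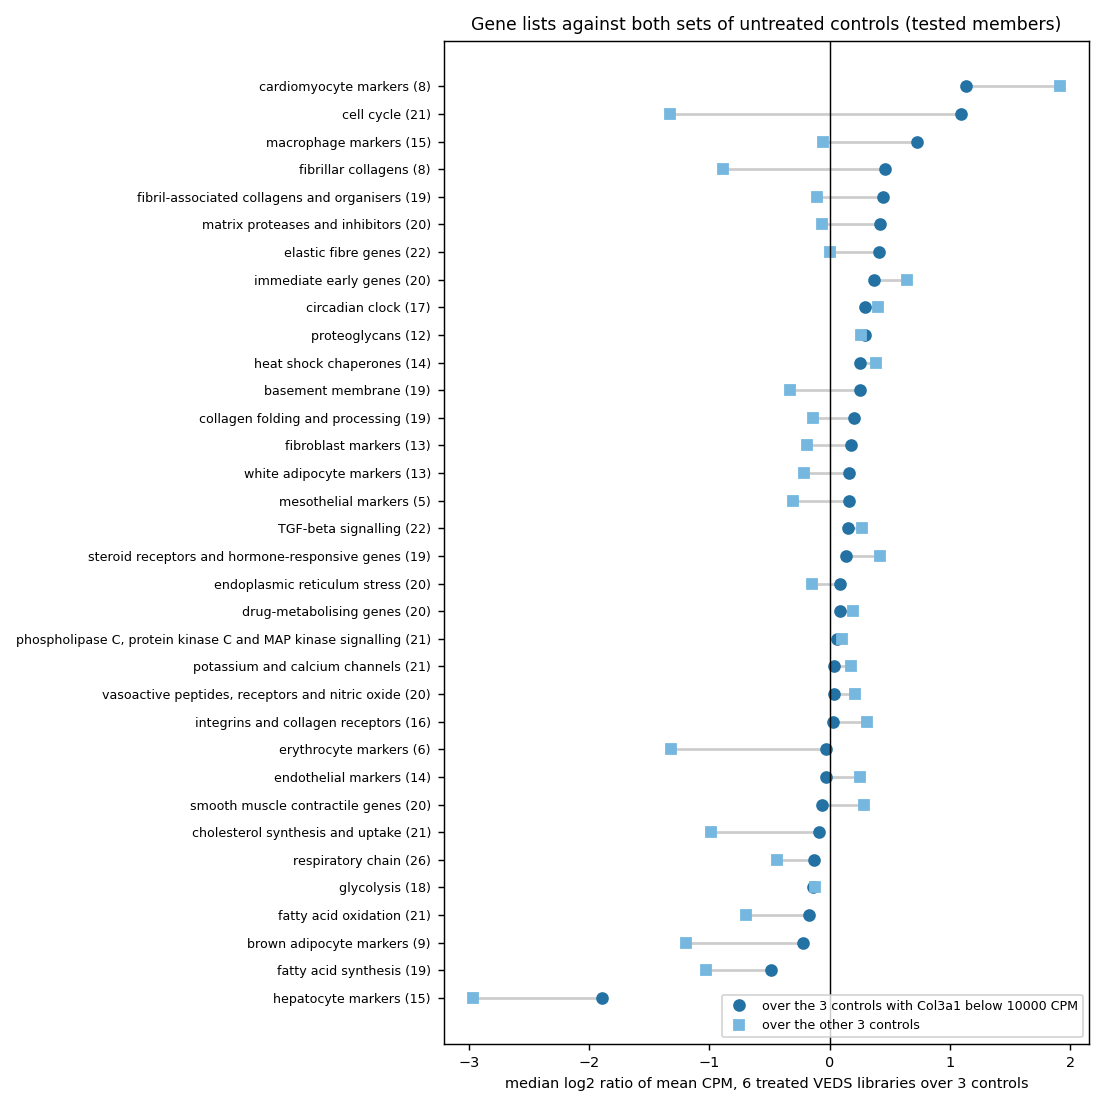
Median log2 ratio of mean CPM over the tested members of each gene list (number in brackets), for the 6 treated libraries over the 3 matrix-low controls (circles) and over the other 3 controls (squares), with 0 marking equal levels. Fibrillar collagens (0.46 and -0.89) and cell cycle genes (1.09 and -1.33) fall on opposite sides of 0, while fatty acid synthesis (-0.49 and -1.03) and hepatocyte markers (-1.90 and -2.97) are below 0 against both.

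*Nr3c2*, the mineralocorticoid receptor that spironolactone blocks, was not called. It stood at 44.9, 41.3 and 39.4 CPM in HB and 30.5, 40.3 and 45.5 CPM in HS, below the 47.4, 56.2 and 54.0 CPM of the matrix-low controls and, except HS replicate 1, above the 22.4 to 35.0 CPM of the others. Its log2 fold change against all 6 controls was -0.04 ± 0.20 (edgeR, adjusted p = 0.954), and turned positive, up to 0.08, without control replicate 1, 2 or 3 or HS replicate 1. Among 19 tested steroid receptor and hormone-responsive genes, 1 was called lower and 0 higher. That gene was *Hsd11b1*, an enzyme that regenerates active glucocorticoid, at 12.65 to 26.45 CPM against 22.0 to 66.4 CPM in controls (-1.56 ± 0.28, edgeR, adjusted p = 0.0475). *Hsd11b1* is abundant in liver, and liver transcripts moved with it as given below.

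Lipid synthesis genes lay below most controls. *Acss2*, which makes acetyl-CoA from acetate, stood at 28.6, 41.1 and 42.7 CPM in HB and 26.1, 32.4 and 24.7 CPM in HS. It stood at 71.2, 90.0 and 39.3 CPM in the matrix-low controls and 68.9, 103 and 77.5 CPM in the others, so a single control, replicate 3, overlapped with treated values. It was called lower (-1.23 ± 0.21, edgeR, adjusted p = 0.0437), and untreated VEDS ran higher still, from 55.4 to 137 CPM (-1.60 ± 0.22, edgeR, adjusted p = 0.00715). *Me1*, the malic enzyme that supplies NADPH, stood at 64.5 to 100.3 CPM in treated aortas and 89.65 to 156 CPM in controls (-0.69 ± 0.14, edgeR, adjusted p = 0.0475). *Pmvk*, phosphomevalonate kinase of the cholesterol pathway, stood at 13.4, 12.7 and 11.8 CPM in HB and 15.5, 16.45 and 10.2 CPM in HS, below all controls at 18.3 to 30.8 CPM (-0.81 ± 0.16, edgeR, adjusted p = 0.0475). *Tm7sf2*, a sterol reductase, stood at 5.00 to 7.315 CPM in treated and 7.73 to 17.2 CPM in control aortas (-1.03 ± 0.20, edgeR, adjusted p = 0.0475).

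All 19 tested fatty acid synthesis genes had a negative log2 fold change against the 6 controls, with a median of -0.70 against 0.00 over all genes, and 2 were called lower, *Acss2* and *Me1*. DESeq2 called 10 of the 19 lower and 0 higher. Without HB replicate 2 and HS replicate 3, edgeR called 0. In 14 of the 19 all treated values lay below the other 3 controls, whereas 0 lay below the matrix-low controls. *Fasn*, fatty acid synthase, stood at 564, 835 and 840 CPM in HB, 391.8, 418 and 121 CPM in HS and 1584, 1100 and 364 CPM in the matrix-low controls. Control replicate 3 lay within the treated range and the other 2 matrix-low controls lay above it. Its 1630 to 2229 CPM in the other controls and 1966 to 3576.5 CPM in untreated VEDS lay above all treated values, and its log2 fold change was -1.65 ± 0.44 against controls (edgeR, adjusted p = 0.0874). *Scd1*, the stearoyl-CoA desaturase, behaved alike, with 421 to 1232 CPM in treated aortas, 823 CPM in control replicate 3 and 2221 to 3225 CPM in the other 5 controls. The brown fat gene *Ucp1* was also lowest among controls in replicate 3, at 25.3 CPM against 191 to 532.4 CPM, and ran from 27.6 to 193.5 CPM in treated aortas. Brown adipocyte markers summed to 212 to 537 CPM in treated aortas, 199.7 to 515 CPM in the matrix-low and 489 to 989 CPM in the other controls, and the part of fat left after cleaning in these results was not tested.

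Cholesterol synthesis, fatty acid oxidation and respiratory chain genes were mostly negative against the 6 controls with few calls. Of 21 cholesterol genes, 20 had a negative log2 fold change with a median of -0.62, and 1 was called lower, *Pmvk*. In 16 of the 21 the treated values lay below the other 3 controls, and in 1 below the matrix-low controls, over which the median log2 ratio was -0.085. Of 21 fatty acid oxidation genes, 20 were negative with a median of -0.50 and 0 calls, and 11 lay below the other 3 controls. The 26 respiratory chain genes were all negative with a median of -0.31 and 0 calls. DESeq2 called 5 cholesterol, 2 fatty acid oxidation and 0 respiratory chain genes lower, and 0 genes of these lists higher. *Gapdh*, the glycolytic enzyme often used as a reference gene, stood at 400, 410 and 401 CPM in HB and 339, 322 and 256 CPM in HS. It stood at 493, 439 and 401 CPM in the matrix-low and 498 to 526 CPM in the other controls, and was called lower (-0.46 ± 0.09, edgeR, adjusted p = 0.0475). *Tpi1*, another glycolytic enzyme, lay below all controls at 125 to 144 CPM against 147 to 173 CPM without passing the test (-0.27 ± 0.06, edgeR, adjusted p = 0.0652).

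The promoters of *Acss2* and *Tm7sf2* are shown because both lipid genes were called lower and both held a CCAAT box, a motif of many lipid synthesis promoters. Each sequence is the 150 bases before the start of transcription, 5′ to 3′ on the coding strand, and capitals mark the match, which is CCAAT on the other strand. *Acss2* lies at chr2:155517893-155518042 on the plus strand, and *Tm7sf2* at chr19:6067851-6068000 on the minus strand (RefSeq, GRCm38.p6).
Acss2: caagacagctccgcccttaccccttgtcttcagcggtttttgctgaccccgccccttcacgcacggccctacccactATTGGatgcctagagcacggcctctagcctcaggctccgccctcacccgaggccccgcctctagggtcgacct
Tm7sf2: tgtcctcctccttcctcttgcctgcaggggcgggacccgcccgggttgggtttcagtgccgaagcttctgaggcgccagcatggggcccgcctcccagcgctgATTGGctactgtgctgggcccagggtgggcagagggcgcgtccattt

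Within 250 bases before the start, CCAAT on either strand was present for 26 of the 49 genes called lower that had a promoter (53.1%) and for 7 of the 18 called higher (38.9%). Over all tested genes with a promoter the share was 40.4%, and over all promoters it was 33.8%. The motif was chosen after the calls were seen, and nothing about binding follows from a match.

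Most of the largest decreases were in transcripts best known from liver. *Serpina1e*, an alpha-1 antitrypsin gene of a family with near-identical copies between which reads are uncertain, stood at 12.2, 17.0 and 3.33 CPM in HB and 110, 38.1 and 5.72 CPM in HS. It stood at 158, 757 and 360.8 CPM in the matrix-low and 533.1, 339 and 511 CPM in the other controls (-4.26 ± 0.69, edgeR, adjusted p = 0.0442). Every treated value lay below every control, while untreated VEDS ran from 29.2 to 799 CPM and overlapped with the treated values. *Mug2*, a murinoglobulin gene of a family with a pseudogene copy, stood at 1.60 to 7.21 CPM against 15.5 to 114 CPM (-3.62 ± 0.51, edgeR, adjusted p = 0.032). *Saa4*, a serum amyloid protein, stood at 0.931 to 3.91 CPM against 5.34 to 11.8 CPM (-2.29 ± 0.33, edgeR, adjusted p = 0.032). *Lipc*, hepatic lipase, *Amdhd1*, of histidine breakdown, and *Aox3*, an aldehyde oxidase, were called with log2 fold changes of -2.69 ± 0.52, -2.59 ± 0.45 and -2.57 ± 0.49 (edgeR, adjusted p = 0.0487, 0.0475 and 0.0487). In each of these liver-type genes the treated values overlapped with untreated VEDS. None was called against untreated VEDS (edgeR, adjusted p from 0.105 to 0.263).

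Defining hepatocyte markers varied in the same libraries. *Alb*, albumin, stood at 556, 408.5 and 427 CPM in HB, 1107, 441 and 112 CPM in HS, 583, 4009 and 1394 CPM in the matrix-low controls and 6714 to 7353 CPM in the other controls, with -3.18 ± 0.72 against all 6 (edgeR, adjusted p = 0.0692). All 15 tested hepatocyte markers had a negative log2 fold change with a median of -2.48. Of them edgeR called 0, while DESeq2 called 14 lower and 0 higher. Their summed level ran from 325 to 3833 CPM in treated aortas, 1990 to 11394.5 CPM in the matrix-low controls, 14802 to 15818 CPM in the other controls and 204 to 25407 CPM in untreated VEDS. The part of RNA from liver in these results was not tested.

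**Figure D4:**
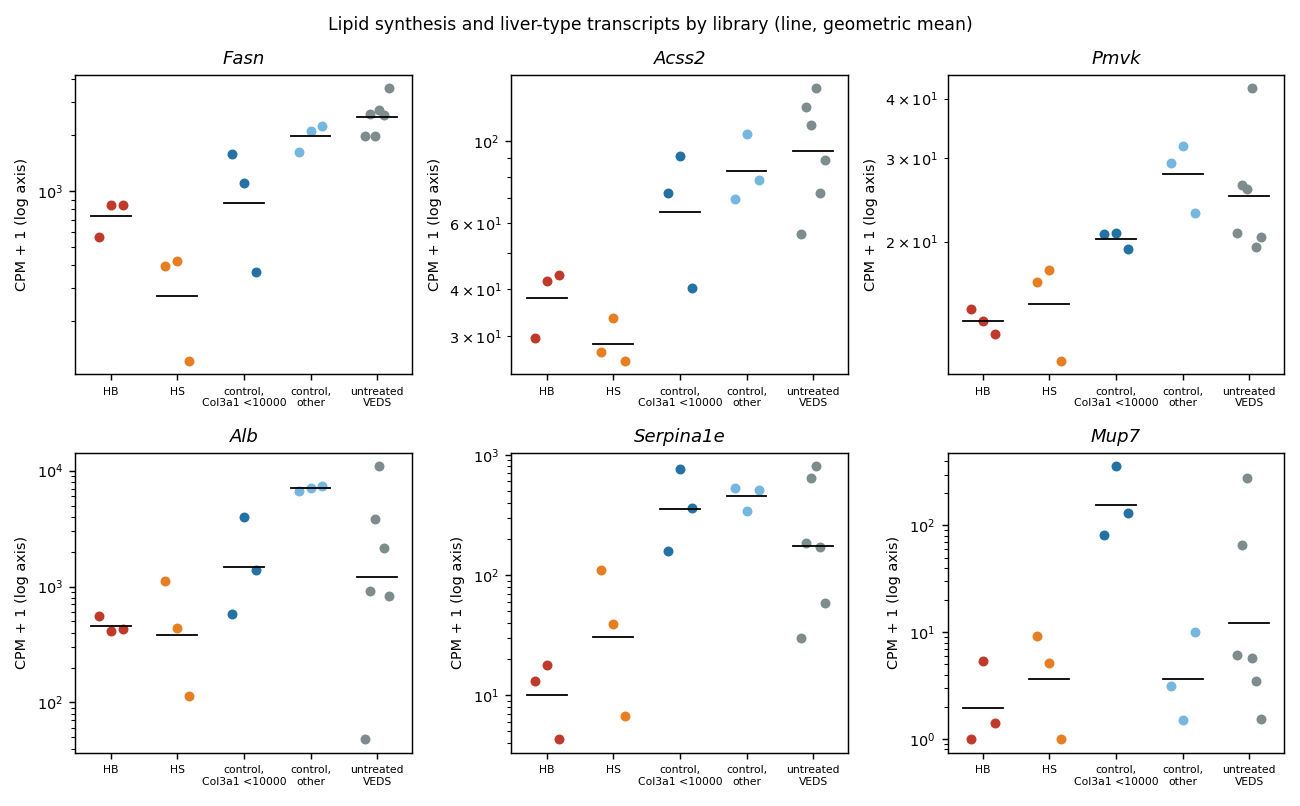
Levels of 3 lipid synthesis transcripts and 3 liver-type transcripts as CPM + 1 on a log axis, by library, with a line for the geometric mean of each group. *Pmvk* and *Serpina1e* lie below all 6 controls in every treated library, *Fasn* and *Acss2* overlap with matrix-low control replicate 3, and *Mup7* separates the matrix-low controls from the other controls and from the treated libraries.

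A few transcripts abundant in liver stood higher in all matrix-low controls than in the other controls and the treated libraries. They were picked after their values were seen and are given as values only. *Mup7*, of the major urinary protein family that is known for high expression in the liver of adult males and whose copies share reads, stood at 80.5, 356 and 129 CPM in the matrix-low controls. It stood at 2.13, 0.513 and 9.12 CPM in the other controls, 0, 4.33 and 0.416 CPM in HB and 8.12, 4.19 and 0 CPM in HS. In *Mup7* the treated libraries thus stood with the other controls and far below the matrix-low ones, although *Alb* was higher in the other controls than in any matrix-low control. *Mup11* of the same family showed this order, while *Mup3* did not. *Mup3* stood at 6.65 to 109 CPM in treated aortas, below both the 124 to 722 CPM of the matrix-low and the 211 to 381 CPM of the other controls. *Cyp7b1*, a steroid hydroxylase, stood at 7.50, 31.8 and 10.7 CPM in the matrix-low controls, 3.04 to 4.10 CPM in the others and 0.798 to 6.61 CPM in treated aortas. *Elovl3*, a fatty acid elongase also listed here as a brown adipocyte marker, stood at 19.55, 52.3 and 22.5 CPM, 9.88 to 14.9 CPM and 0.266 to 10.7 CPM in the same order. Untreated VEDS overlapped with the matrix-low controls in *Mup7*, at 0.522 to 280 CPM, *Cyp7b1*, at 1.01 to 19.8 CPM, and *Elovl3*, at 11.2 to 46.9 CPM.

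Macrophage markers were higher on average than in the matrix-low controls, and most overlapped with them. Of 15 macrophage markers, 6 lay above these controls, all 15 were higher on average and the median log2 ratio was 0.72, while over the other 3 controls it was -0.05 and 0 lay above or below. *Csf1r*, the receptor for the macrophage growth factor, stood at 60.4, 77.05 and 89.3 CPM in HB and 71.2, 86.0 and 57.9 CPM in HS, against 36.5, 47.95 and 33.0 CPM in the matrix-low and 67.7 to 89.8 CPM in the other controls. *Mrc1*, the mannose receptor of resident macrophages, stood at 80.8 to 122 CPM against 48.3 to 66.9 CPM and 91.9 to 136 CPM. Against all 6 controls 0 of 15 were called, and *Csf1r* had a log2 fold change of 0.32 ± 0.25 (edgeR, adjusted p = 0.572). The mast cell protease genes *Cma1*, *Mcpt4* and *Cpa3*, named after their values were seen, stood at 4.42 to 9.62, 4.25 to 14.1 and 4.08 to 12.9 CPM in treated aortas. In the matrix-low controls they stood at 0.562 to 1.71, 0.703 to 1.86 and 0.843 to 2.12 CPM, and in the other controls they reached 11.5, 9.57 and 8.04 CPM, each time in replicate 5.

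Cell cycle genes lay between the sets of controls on average, with values that mostly overlapped. *Top2a*, a topoisomerase of dividing cells, stood at 5.95, 19.3 and 9.29 CPM in HB and 16.1, 11.3 and 6.25 CPM in HS, against 4.19 to 5.21 CPM in the matrix-low controls and 10.9 to 70.6 CPM in the others. Of 21 tested cell cycle genes, 19 were higher on average than in the matrix-low controls and 4 did not overlap, among them *Top2a*, *Cenpf* and *Prc1*. The median log2 ratio was 1.09 over the matrix-low controls and -1.33 over the others, and 0 were called against all 6.

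*Avpr1a*, the vasopressin receptor of smooth muscle and hepatocytes, was the single called gene of 20 in the list of vasoactive peptides and receptors. It stood at 0.851, 1.33 and 0.832 CPM in HB and 3.61, 2.58 and 1.73 CPM in HS, against 3.91, 5.59 and 4.50 CPM in the matrix-low and 5.81 to 10.6 CPM in the other controls. No treated value overlapped with a control (-1.97 ± 0.30, edgeR, adjusted p = 0.032), and the level was also lower than in untreated VEDS, at 3.16 to 10.1 CPM (-1.79 ± 0.35, edgeR, adjusted p = 0.0189). *Gucy1a1*, a subunit of the nitric oxide receptor of smooth muscle, lay below the matrix-low controls at 306 to 420 CPM against 449 to 480 CPM and overlapped with the others.

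To separate levels beyond controls from levels that the mutants already had, the same 6 libraries were compared with 6 untreated VEDS aortas of mixed age. Of 13368 genes, 338 were called (2.53%), 103 higher (0.770%) and 235 lower (1.76%). Of the 24 genes called higher against controls, 15 were also called higher here, and of the 67 called lower, 10 were also called lower. The same treated libraries enter both comparisons, so the values are given side by side. *Cyp2b10* was higher by 2.92 ± 0.33 on the log2 scale against untreated VEDS (edgeR, adjusted p = 0.00165) and *Hhip* by 0.90 ± 0.17 (edgeR, adjusted p = 0.0189), close to their values against controls. *Thbd* was higher by 0.43 ± 0.08 (edgeR, adjusted p = 0.0163) and *Klf2* by 0.63 ± 0.12 (edgeR, adjusted p = 0.0177). Of 19 fatty acid synthesis genes, 12 were called lower than in untreated VEDS with a median of -1.40, and *Fasn* was lower with a log2 fold change of -2.42 ± 0.29 (edgeR, adjusted p = 0.00393). Of 26 respiratory chain genes, 21 were called lower and 0 higher. Fat markers differed in the same libraries. *Ucp1* ran from 27.6 to 193.5 CPM in treated aortas and 219 to 885 CPM in untreated VEDS. Brown adipocyte markers summed to 212 to 537 CPM and 550 to 1436 CPM, with a median log2 fold change of -1.47 and 0 of 9 called. White adipocyte markers overlapped in sum. The part of fat in these decreases was not tested. Fibrillar collagens had 0 of 8 called and a median of -0.40.

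**Figure D5:**
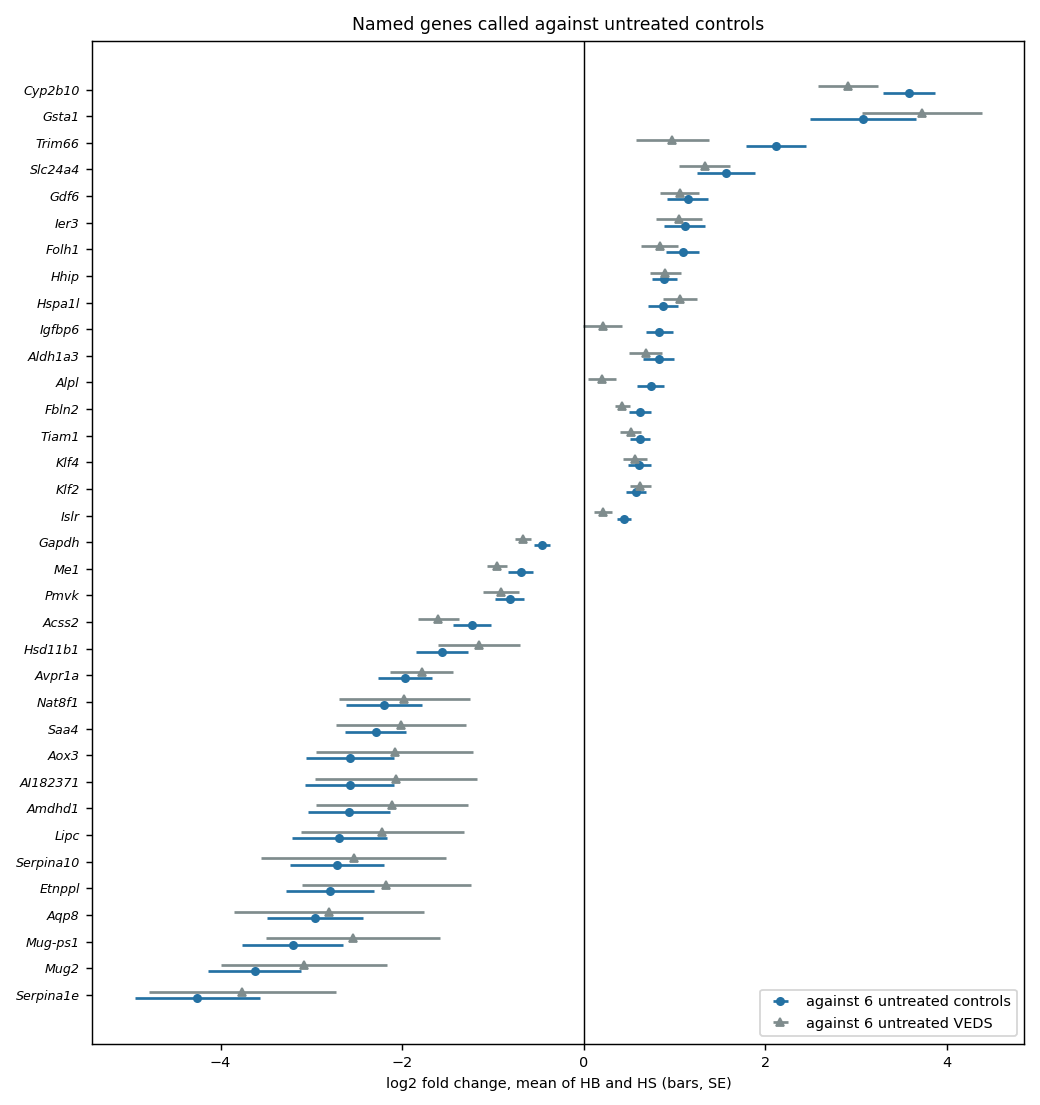
Log2 fold change of the mean of HB and HS (horizontal axis) with bars of 1 standard error, for named genes called against the 6 untreated controls (circles) and the same genes against the 6 untreated VEDS libraries (triangles). *Cyp2b10* lies at 3.59 and 2.92 and *Hhip* at 0.89 and 0.90, while *Igfbp6* lies at 0.84 against controls and 0.21 against untreated VEDS.

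The 6 controls given hydralazine alone share that drug with the treated mice, and not the antagonist or the mutation. They were collected on day 30 and on day 60 and the age of each library is not labelled, so age differs too. Against them, 3 of 13324 genes were called (0.0225%), *Trim66*, *Ostn* and *Hhip*. *Trim66* was higher by 3.83 ± 0.36 on the log2 scale (edgeR, adjusted p = 0.000837). *Ostn*, which encodes the secreted peptide osteocrin, was higher by 5.41 ± 0.63 (edgeR, adjusted p = 0.00509), over a mean of 0.0527 CPM in hydralazine controls. It stood at 1.60 to 4.03 CPM in treated aortas, 0 to 0.163 CPM in the matrix-low controls and 0 to 3.42 CPM in the others. Untreated VEDS ran from 0 to 4.00 CPM. *Ostn* was not called against untreated controls (edgeR, adjusted p = 0.198) or untreated VEDS (edgeR, adjusted p = 0.486). *Gdf6* had a log2 fold change of 1.135 ± 0.18 (edgeR, adjusted p = 0.0609) and *Pigz*, an enzyme of anchor synthesis, of -1.52 ± 0.23 (edgeR, adjusted p = 0.0521). *Col3a1* stood at -0.79 ± 0.36 in this comparison (edgeR, adjusted p = 0.5535).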

How the data were processed

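RNA from the descending thoracic aorta of male mice was sequenced as stranded total RNA libraries. Per the labels and the study's methods, the authors made reads with CASAVA 1.8.4, aligned them to mm39 and deposited RSEM expected counts per gene. Of these values, nearly all were whole, and all were rounded to whole numbers before testing. Totals over the 30 libraries ran from 5517510 to 8293289, which sets the counting error of low genes. The study's own test (EBSeq) was not run here. Groups were taken from the labels, and genes were tested with the edgeR 4.0.16 quasi-likelihood test (R 4.3.3, TMM normalisation, filter on low counts by group, robust fit) with Benjamini-Hochberg adjustment over all genes tested, and called at 0.05. DESeq2 1.42.0, other scalings and filters and fits without single libraries were alternatives. No label ties libraries to extraction batches or ages, and p-values measure the spread between these libraries, 1 aorta each as far as the labels tell.

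The 3 matrix-low controls were chosen by *Col3a1* below 10000 CPM and were not used in a test on their own. A count of non-overlapping genes used genes with a mean of at least 1 CPM. Named were *Col3a1* and *Nr3c2*, beside 1 gene of the rule that is not reported here, the 12 or fewer called genes of each direction with the largest change among those averaging 5 CPM or more, as many as 3 called or non-overlapping members of each list, and, where a comparison called under 5 genes, those with the smallest p. *Thbd*, *Ccn5*, *Flnc*, *Bgn*, *Fasn*, *Scd1*, *Tm7sf2*, *Mup7*, *Cyp7b1*, the mast cell genes and other genes outside this rule were chosen after their values were seen. Members and lists were chosen with earlier results of these data known. Promoter sequences came from RefSeq (GRCm38.p6), matched by symbol.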

Additional observations from a re-analysis of the deposited data

Results flagged for a closer look

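Among 98 named genes, the 2 untreated groups of 6 libraries were examined for a library far from the rest, and 18 of 196 groups held one. Chance marks about 1 in 20 groups. No explanation was tested, and the treated groups of 3 were too small for this check.

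Untreated control replicate 5 stood above the other 5 controls in *Col12a1* (141.1 against at most 80.2 CPM), *Asns* (21.2 against 6.99 CPM), *Trib3* (5.81 against 2.17 CPM), *Ostn* (3.42 against 0.163 CPM), *Cma1* (11.46 against 3.95 CPM) and *Mcpt4* (9.57 against 3.04 CPM). Control replicate 2, one of the matrix-low controls, stood high in *Mup7* (356.1 against 128.8 CPM) and *Elovl3* (52.3 against 22.5 CPM). Control replicate 3, also matrix-low, stood low in *Me1* at 89.65 CPM, where the next control had 133.9 CPM. Control replicate 6 stood high in *Tgfbi* (213.3 against 157.7 CPM).

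Untreated VEDS replicate 4 stood high in *Alb* (10859 against 3853 CPM), *Hmgcs1* (313.2 against 145 CPM), *Gapdh* (672.2 against 548.3 CPM) and *Pmvk* (41.06 against 25.3 CPM). Untreated VEDS replicate 1 stood high in *Ier3* (18.26 against 11.4 CPM) and low in *Hhip* (29.91 against 56.35 CPM). Replicate 3 stood high in *Mup7* (279.7 against 64.5 CPM) and replicate 5 in *Pigz* (3.46 against 1.69 CPM).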

How the results depend on the processing

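The number of called genes depended on the tool and on single libraries. Against untreated controls the 91 calls became 810 with DESeq2, 207 with a filter at a mean of 1 CPM, 2 without HB replicate 2 and HS replicate 3, and 1 to 642 when 1 library was left out. For HB alone the 1 call became 569 with DESeq2, 5 with no filter, 55 in a fit of all 30 libraries, 2 without those 2 libraries and 1 to 90 without 1 library. For HS alone the 2 calls became 279, 12 and 18 with DESeq2, no filter and all libraries, and 1 to 32 without 1 library. Against untreated VEDS the 338 calls became 666 with DESeq2, 89 without those 2 libraries and 127 to 659 without 1 library. Against hydralazine controls the 3 calls became 110 with DESeq2, 10 in the fit of all libraries and 2 to 44 without 1 library. The 501 genes above the matrix-low controls became 812 against the other controls, 59 against all 6, 830 without the 2 libraries and 562 to 877 without 1 library. The 272 below became 1338, 80, 607 and 338 to 689. The cause of these shifts was not tested, except that fewer libraries leave more genes without overlap by construction. Over 98 genes and 1761 alternative values, 1280 kept direction and side of the threshold, 46 gained a call, 24 reversed and the rest lost a call. All reversals came from leaving out 1 library, in genes that were not called. Over those fits the log2 fold change ran from -0.157 to 0.077 in *Nr3c2*, -0.329 to 0.016 in *Col1a2*, -0.188 to 0.099 in *Sparc*, -0.196 to 0.118 in *Adamts2*, -0.005 to 0.181 in *P4ha2*, -0.079 to 0.342 in *Lamb1*, -0.255 to 0.022 in *Nid1*, -0.197 to 0.054 in *Ctsk*, -0.066 to 0.848 in *Asns*, -0.068 to 0.150 in *Xbp1*, -0.789 to 0.329 in *Prc1* and -0.087 to 0.075 in *Cd34*. The fibrillar collagen list without *Col3a1*, an alternative chosen after seeing the data, changed its median ratio over the matrix-low controls from 0.460 to 0.458. No paired analysis was possible because replicates are numbered in accession order and no label pairs libraries across groups.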
